A study of Mus musculus with 4 samples.

Results

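The genes described are 33 genes of DNA repair and of the DNA damage checkpoint, chosen by name and followed in single leukaemia cells. All 33 were found among the 27998 gene rows of the count table. They fall into 6 groups by pathway, with 9 genes of recombination and the Fanconi anaemia pathway, 4 of end joining, 2 of mismatch repair, 6 of base excision and strand break repair, 5 of nucleotide excision repair and 7 of the checkpoint. The cells were MLL-AF9 leukaemia cells of the mouse. MLL-AF9 is a fusion oncogene of acute myeloid leukaemia, delivered by retrovirus into c-Kit+ marrow cells of Hif-1alpha Lox/Lox CreERT2 mice. All leukaemias, the controls included, therefore carried the floxed gene and the tamoxifen-activated Cre, and the primary leukaemias were passed into further mice (C57BL6, 11 weeks old). From 10 days after that transplant the mice received 1 mg tamoxifen or vehicle for 5 days, then cytarabine (100 mg/kg, 5 days) with doxorubicin (3 mg/kg, 3 days) or PBS. Marrow was collected 3 days after treatment ended and sorted for GFP, which marks transduced cells. The labels give Hif-1a wt with PBS, Hif-1a KO with PBS, Hif-1a wt with chemotherapy and Hif-1a KO with chemotherapy, 1 sample of each, and do not say how many mice a sample held. Cell barcodes end in a suffix from 1 to 4, and no source used here ties a suffix to a sample. The suffixes are therefore described as 4 samples with no assigned group, no comparison of genotype or treatment was made, and there is no test and no p-value.

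Homologous recombination repairs DNA breaks by copying the sister chromatid, so it works during and after replication, and the Fanconi anaemia proteins hand it crosslinks and stalled forks. End joining seals break ends at any stage of the cycle. Mismatch repair corrects errors of replication, base excision repair replaces damaged bases, and nucleotide excision repair cuts out bulky lesions. The checkpoint kinases ATM and ATR sense breaks and stalled forks and signal through CHK2 and CHK1. Cytarabine stalls replication and doxorubicin traps topoisomerase II on broken DNA, so these pathways act on the lesions both drugs cause. The counts are of transcripts and say nothing of protein, phosphorylation or repair itself.

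After removal of 208 barcodes with over 10% mitochondrial UMIs (unique molecular identifiers, the counted molecules), 5456 cells were kept, between 1174 and 1625 per suffix, with 7644436 to 9932649 UMIs per suffix. Among 5441 distinct barcode sequences, 15 occurred in more than 1 suffix. Levels are a gene's UMIs divided by all UMIs and scaled to 1000000 (CPM), not divided by gene length, with exact Poisson 95% intervals that cover counting error only. Where no UMI was counted, up to 3 counts are allowed, or 0.302 to 0.392 CPM depending on the suffix. The leukocyte gene Ptprc was counted at 60.6 to 85.6 CPM and Elane at 2700 to 6368 CPM, while 10 erythroid markers summed to 2.64 to 4.45 CPM with 2 of them at 0. Hif1a was counted at 26.5 to 38.5 CPM, which checks no genotype label because a count at the transcript end can lie outside the deleted part. The suffixes differed in stage markers and cycling: 13 neutrophil markers summed to 879, 1514, 18288 and 13114 CPM.

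The 33 genes together made up 1546, 1387, 1051 and 1078 CPM in suffixes 1 to 4. Their summed level was thus higher in suffixes 1 and 2 than in suffixes 3 and 4. Xpc, which recognises distorted DNA for nucleotide excision repair, held 37.2% of the mean summed level. Its gene lies on chromosome 6 from 91489305 to 91515888 (GRCm38, minus strand), and it was counted at 599 CPM (582 to 616), 525 (510 to 541), 394 (382 to 407) and 367 (354 to 380) over the 4 suffixes in that order. No interval of suffix 1 or 2 overlapped one of suffix 3 or 4. A gene was counted as spread where its highest suffix was at least 1.5 times its lowest and their intervals did not overlap. Of the 29 members whose mean reached 5 CPM, 9 were spread (31.0%): Brca1, Mre11a, Nbn, Xrcc6, Msh6, Apex1, Xpc, Ercc2 and Chek1. Over all 8244 genes of that level the share was 38.4%, and of the other repair genes from the same pathways 39 of 81 were spread (48.1%), so a spread over suffixes was no more frequent in the members. With TMM scaling (a correction for composition) 6 of the 29 members were spread, beside 34.5% of all genes, and Brca1, Nbn and Xpc were no longer among them.

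Apex1, the nuclease that cuts DNA at sites that have lost a base, was counted at 171 CPM (162 to 180), 153 (144 to 161), 77.5 (72.1 to 83.2) and 86.2 (80.1 to 92.6) in suffixes 1 to 4. Suffixes 1 and 2 were the high pair. Xrcc6, a subunit of the Ku ring that holds broken ends, stood at 41.2, 31.0, 17.9 and 19.2 CPM, and Msh6, which recognises mismatches, at 22.8, 24.3, 11.1 and 11.1. Both had the same high pair. Chek1, the kinase that carries the ATR signal, was at 14.0, 9.49, 5.84 and 6.55 CPM, and Brca1, which prepares breaks for recombination, at 7.06, 5.52, 4.23 and 3.51. Suffix 1 was the highest for these genes, and the intervals of suffixes 2 to 4 overlapped for Brca1.

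Other members lay closer together over the suffixes. Parp1, which senses strand breaks and marks them with poly(ADP-ribose), was counted at 71.2, 72.8, 66.7 and 66.2 CPM. Lig1, the ligase that joins Okazaki fragments and repair patches, was at 102, 82.4, 74.7 and 77.8 CPM, and H2afx, the histone variant that is phosphorylated around breaks, at 194, 185, 146 and 174. Suffix 1 was highest and suffix 3 lowest for these last genes, within 1.5-fold. Rad50, the arm of the MRE11 complex, stood at 51.5, 48.0, 39.7 and 42.9 CPM and Xrcc1, the scaffold of single-strand break repair, at 29.96, 27.6, 20.8 and 20.1. Pms2, which acts in mismatch repair after a mismatch is recognised, was at 19.5, 17.1, 13.5 and 14.9 CPM, and Ercc1, a subunit of the nuclease that cuts beside a bulky lesion, at 22.6, 21.3, 16.6 and 18.6. The values of suffixes 1 and 2 were above those of suffixes 3 and 4 for each of these. For Rad50, Pms2 and Ercc1 the intervals of suffixes 2 and 4 overlapped. Xpa, which verifies the lesion, ran the other way at 37.3, 31.9, 41.5 and 43.2 CPM, with suffix 2 lowest. Prkdc, the catalytic subunit of DNA-PK, was at 8.37, 7.08, 5.64 and 5.50 CPM and Fancd2, which the Fanconi core complex ubiquitylates, at 6.28, 5.40, 3.83 and 5.15. These low levels overlapped between neighbouring suffixes.

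The remaining members were counted at low levels. Brca2, Palb2, Mre11a, Nbn and Fanca, all of recombination and crosslink repair, lay between 5.34 and 24.1 CPM in every suffix. Lig3, Ogg1 and Ercc2, a ligase, a glycosylase for oxidised guanine and a helicase of TFIIH, lay between 6.24 and 12.03 CPM. Atm, Atr, Chek2, Mdc1 and Trp53bp1, the other checkpoint genes, lay between 4.23 and 16.1 CPM. Fanci (mean 3.14 CPM), Ercc5 (3.80), Lig4 (1.68) and Xrcc5 (0.406) had a mean under 5 CPM and are left out of the counts of members below. The plot of levels by suffix shows these orders of magnitude.

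**Figure D1:**
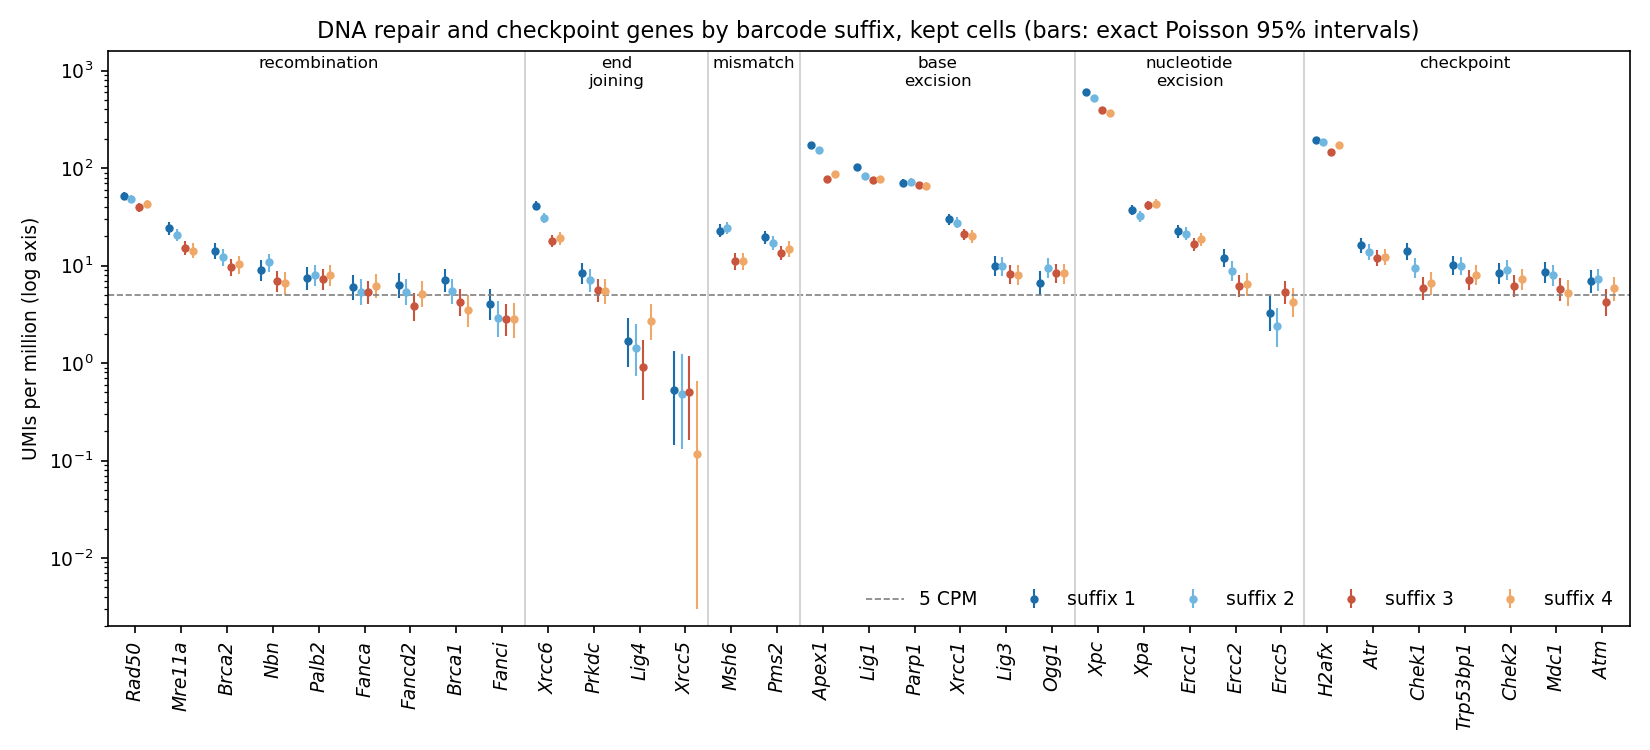
Level of each of the 33 genes (CPM, log axis) in the kept cells of suffixes 1 to 4, grouped by pathway and ordered by mean level, with exact Poisson 95% intervals and a dashed line at 5 CPM. Xpc sits highest at 367 to 599 CPM, and Apex1, Xrcc6 and Msh6 show a gap between suffixes 1 and 2 and suffixes 3 and 4.

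Cycling state was read from genes that are not members: each cell of at least 2000 UMIs was thinned to 2000 UMIs, and its UMIs were summed over 30 S phase genes and over 53 G2 and mitosis genes. Cells at or above the 75th percentile for G2 and mitosis (at least 9 UMIs) were called G2M-high, other cells at or above it for S phase (at least 7 UMIs) S-high, and cells at or under both medians (2 and 5 UMIs) low-cycling. These classes are ranges of a sum and not cell types, and 502 cells lay at the S cut or 1 UMI below it. S-high cells made up 18.1%, 16.7%, 7.28% and 8.37% of suffixes 1 to 4, G2M-high cells 38.4%, 30.8%, 17.2% and 21.1%, and low-cycling cells 20.6%, 21.6%, 55.4% and 51.6%. Median depth was 7990 UMIs in S-high, 7979 in G2M-high and 4514 in low-cycling cells, and the part of depth in the ratios below was not tested.

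Several recombination genes, both mismatch repair genes, Lig1, Apex1 and Chek1 were higher in S-high than in low-cycling cells of the same suffix, and no tested member was lower. A gene met the size rule where it differed at least 1.5-fold in the same direction in every suffix and the exact 95% interval of its pooled ratio excluded 1. In S-high cells 10 of 29 members were higher by this rule, against 7% of all genes tested, and 0 were lower, against 4.22%. They were Brca1, Brca2, Palb2, Mre11a, Fancd2, Msh6, Pms2, Lig1, Apex1 and Chek1. The median log2 ratio was 0.78 over the 29 members and -0.05 over all genes. In G2M-high cells 9 of 29 were higher, against 7.45% of all genes, and 0 were lower, against 4.18%, with median log2 ratios of 0.76 and 0.01. They were 8 of those 10 genes, without Pms2 and Apex1, and H2afx. Both comparisons share their low-cycling cells.

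By pathway, 5 of 8 recombination members, 2 of 2 mismatch members, 2 of 6 base excision members and 1 of 7 checkpoint members were higher in S-high cells. Neither of the 2 end joining members nor any of the 4 nucleotide excision members met the rule. In G2M-high cells the counts were 5 of 8, 1 of 2, 1 of 6, 2 of 7, 0 of 2 and 0 of 4. Recombination and mismatch repair thus held most of the members that met the rule in S-high cells, 7 of 10.

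Lig1 had the highest median log2 ratio of the 29 members in S-high cells, 3.61. Its gene lies on chromosome 7 from 13277283 to 13311433, plus strand, and it was counted at 15.2, 10.7, 9.36 and 12.99 CPM in low-cycling cells of suffixes 1 to 4. In S-high cells it reached 129, 139, 185 and 174 CPM and in G2M-high cells 142, 104, 161 and 149. Every value of the cycling classes lay above every value of the low-cycling class, and suffixes 3 and 4 were not lower than suffixes 1 and 2 within a cycling class. The ratio of pooled UMIs was 13.3 (10.9 to 16.3) in S-high cells.

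Chek1 followed with a median log2 ratio of 3.31 in S-high and 2.58 in G2M-high cells. It lies on chromosome 9 from 36708482 to 36727065, minus strand. Its level was 1.79, 0.767, 0.468 and 1.73 CPM in low-cycling cells (11 UMIs in all), 22.5, 19.5, 16.9 and 17.6 CPM in S-high cells and 15.6, 9.58, 11.7 and 8.80 in G2M-high cells. The values of the classes did not overlap, but the intervals of S-high and G2M-high cells overlapped in every suffix. Chek2, the kinase downstream of ATM, missed the rule with 11.2, 11.6, 8.47 and 10.4 CPM in S-high cells against 4.47, 8.44, 5.15 and 5.20.

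Among recombination genes, Brca1 was at 10.6, 9.16, 9.41 and 5.18 CPM in S-high cells and at 0, 1.53, 0 and 0.289 CPM in low-cycling cells. Fancd2 was at 6.87, 7.32, 5.65 and 4.14 CPM against 0, 0, 0.702 and 0. Each of these genes had 3 UMIs in all low-cycling cells, so the ratios of pooled UMIs are wide, 30.2 (9.73 to 152) for Brca1 and 21.2 (6.66 to 108) for Fancd2. Brca2, a mediator of recombination, was at 14.4, 17.7, 21.6 and 24.9 CPM in S-high cells against 1.79, 3.07, 0.702 and 1.73. The values of the classes did not overlap for these 3 genes, though some intervals of Brca1 and of Fancd2 did. The median log2 ratios of Palb2, the bridge between BRCA1 and BRCA2, and of Mre11a, the nuclease partner of RAD50, were 1.74 and 1.28. Rad50 itself missed the rule through suffix 1, at 55.0, 53.1, 58.3 and 70.4 CPM in S-high cells against 41.1, 23.8, 26.0 and 30.3.

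In mismatch repair, Msh6 was at 37.5, 43.9, 19.8 and 17.6 CPM in S-high cells, 19.4, 20.9, 14.2 and 15.99 in G2M-high cells and 10.7, 9.21, 5.61 and 4.62 in low-cycling cells. It was highest in S-high cells in all 4 suffixes. Pms2 was at 19.98, 24.4, 18.8 and 18.6 CPM in S-high against 8.94, 13.8, 8.89 and 7.79 CPM in low-cycling cells, a median log2 ratio of 1.04. The annotation places Gm42421 and Rsph10b on the strand of Pms2, so reads shared with these genes make its level uncertain.

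Apex1 (chromosome 14, 50924968 to 50927139, plus strand) was at 218, 200, 146 and 149 CPM in S-high cells, 169, 159, 108 and 129 in G2M-high cells and 130, 114, 42.8 and 40.1 in low-cycling cells. It rose by the rule in S-high cells, with a median log2 ratio of 1.27, and the step was larger in suffixes 3 and 4, where low-cycling cells had little of it. No source used here says whether counting used strand, and 14 members, Apex1, Lig1, Xrcc6 and Msh6 among them, overlap a gene on the other strand.

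H2afx separated the 2 cycling classes. It lies on chromosome 9 from 44334694 to 44336077, plus strand, and was counted at 279, 318, 382 and 443 CPM in G2M-high cells, 132, 114, 107 and 111 in S-high cells and 122, 94.4, 55.2 and 48.5 in low-cycling cells. All 4 G2M-high values lay above all S-high values. In G2M-high cells suffix 4 was highest, whereas in low-cycling cells suffix 1 was. Set directly against G2M-high cells, a comparison chosen after seeing the data, S-high cells had 0 members higher (0.0849% of all genes) and 1 of 29 lower (1.56%), and that member was H2afx with a pooled ratio of 0.337 (0.309 to 0.367).

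The other excision and end joining members missed the rule, some with even levels and some with a gap in part of the suffixes only. Parp1 (chromosome 1, 180568924 to 180601254, plus strand) was at 66.8, 79.3, 66.8 and 71.5 CPM in S-high and 62.6, 78.3, 66.9 and 59.7 CPM in low-cycling cells, a pooled ratio of 1.09 (0.961 to 1.24). Xpc was at 544, 468, 374 and 297 CPM in S-high and 641, 589, 393 and 386 in low-cycling cells, with a median log2 ratio of -0.28. Xpa was at 30.6, 28.1, 32.9 and 36.3 CPM against 58.1, 39.1, 47.9 and 47.0. It lay lower in S-high cells in every suffix, but by less than 1.5-fold in suffixes 2 to 4. Xrcc1 (28.1, 28.7, 31.0 and 29.01 CPM in S-high against 25.0, 22.3, 14.5 and 15.01 in low-cycling cells) and Xrcc6 (45.6, 30.5, 30.1 and 30.04 against 42.9, 25.3, 11.5 and 9.24) were at even levels in S-high cells of suffixes 2 to 4. Their low-cycling levels were higher in suffixes 1 and 2, so the classes differed over 1.5-fold in suffixes 3 and 4 alone. Prkdc was at 10.6, 10.4, 9.41 and 4.14 CPM in S-high against 6.26, 7.67, 3.27 and 4.04 in low-cycling cells and Ercc1 at 19.98, 26.2, 16.9 and 13.5 against 11.6, 16.9, 16.8 and 17.0, and neither met the rule. The other members that missed it, Nbn, Fanca, Lig3, Ogg1, Ercc2, Atm, Atr, Mdc1 and Trp53bp1, had median log2 ratios from -0.20 for Lig3 to 1.06 for Atm. Of the members under 5 CPM, Fanci met the rule in both classes, with 2 UMIs in all low-cycling cells and a pooled ratio of 25.1 (6.28 to 218) in S-high cells.

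**Figure D2:**
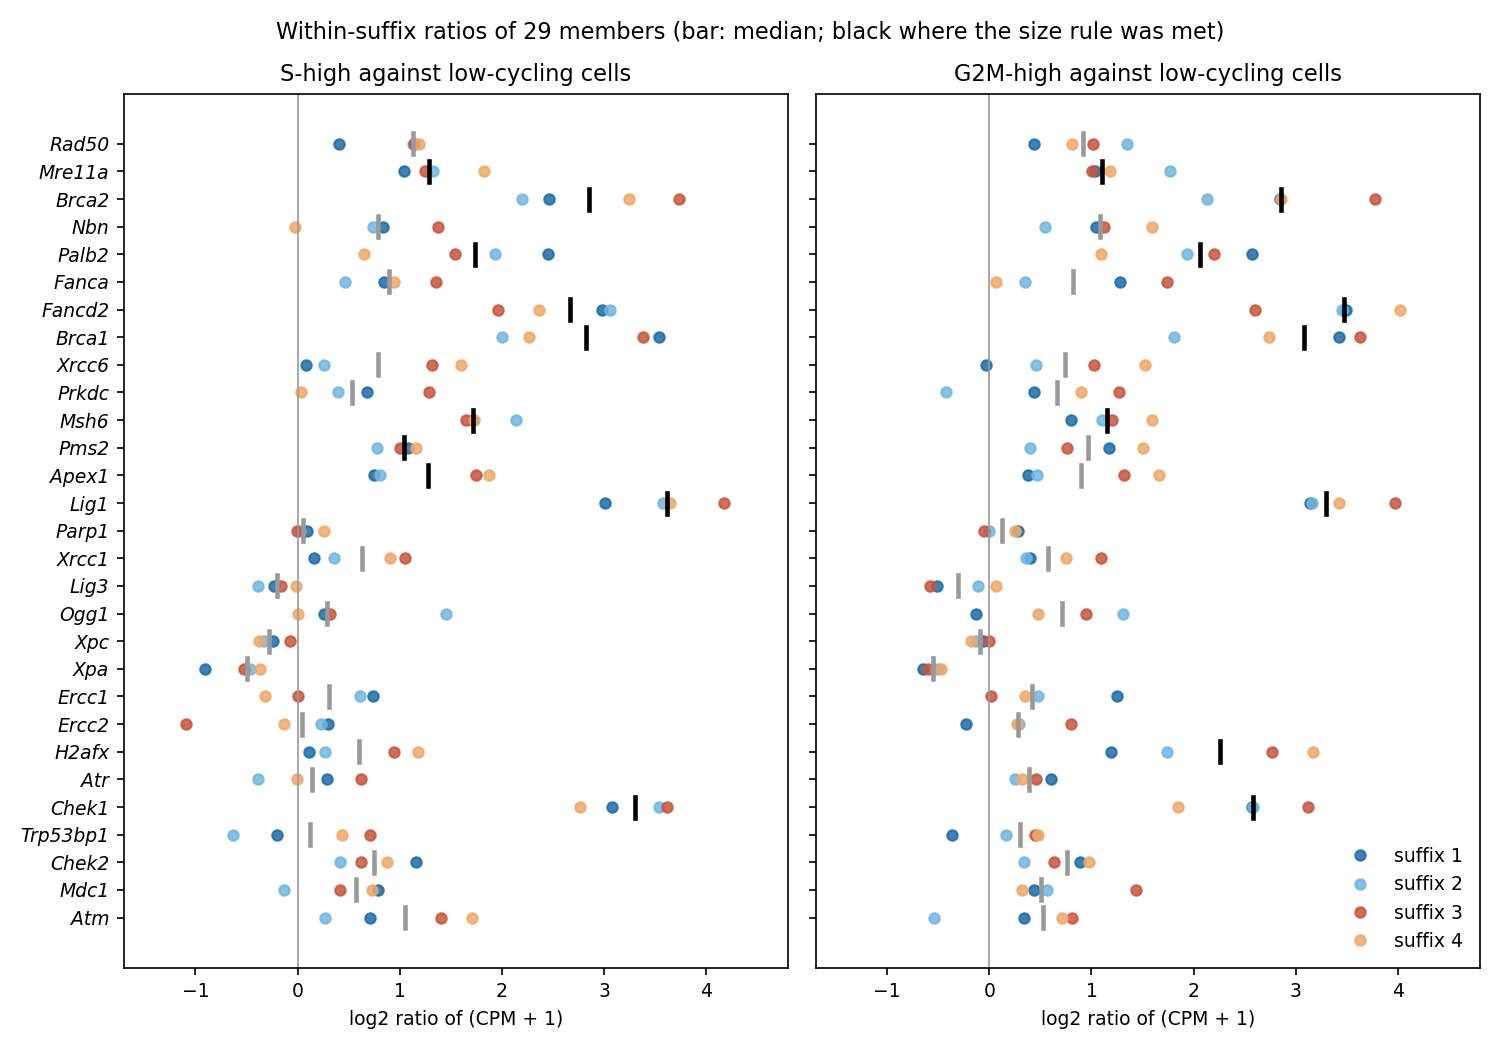
Log2 ratio of (CPM + 1) of 29 members in S-high cells (left) and G2M-high cells (right) against low-cycling cells, 1 point per suffix, with a bar at the median that is black where the size rule was met. Lig1, Chek1, Brca1, Brca2 and Fancd2 lie far to the right in both panels, and H2afx does so in the right panel.

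**Figure D3:**
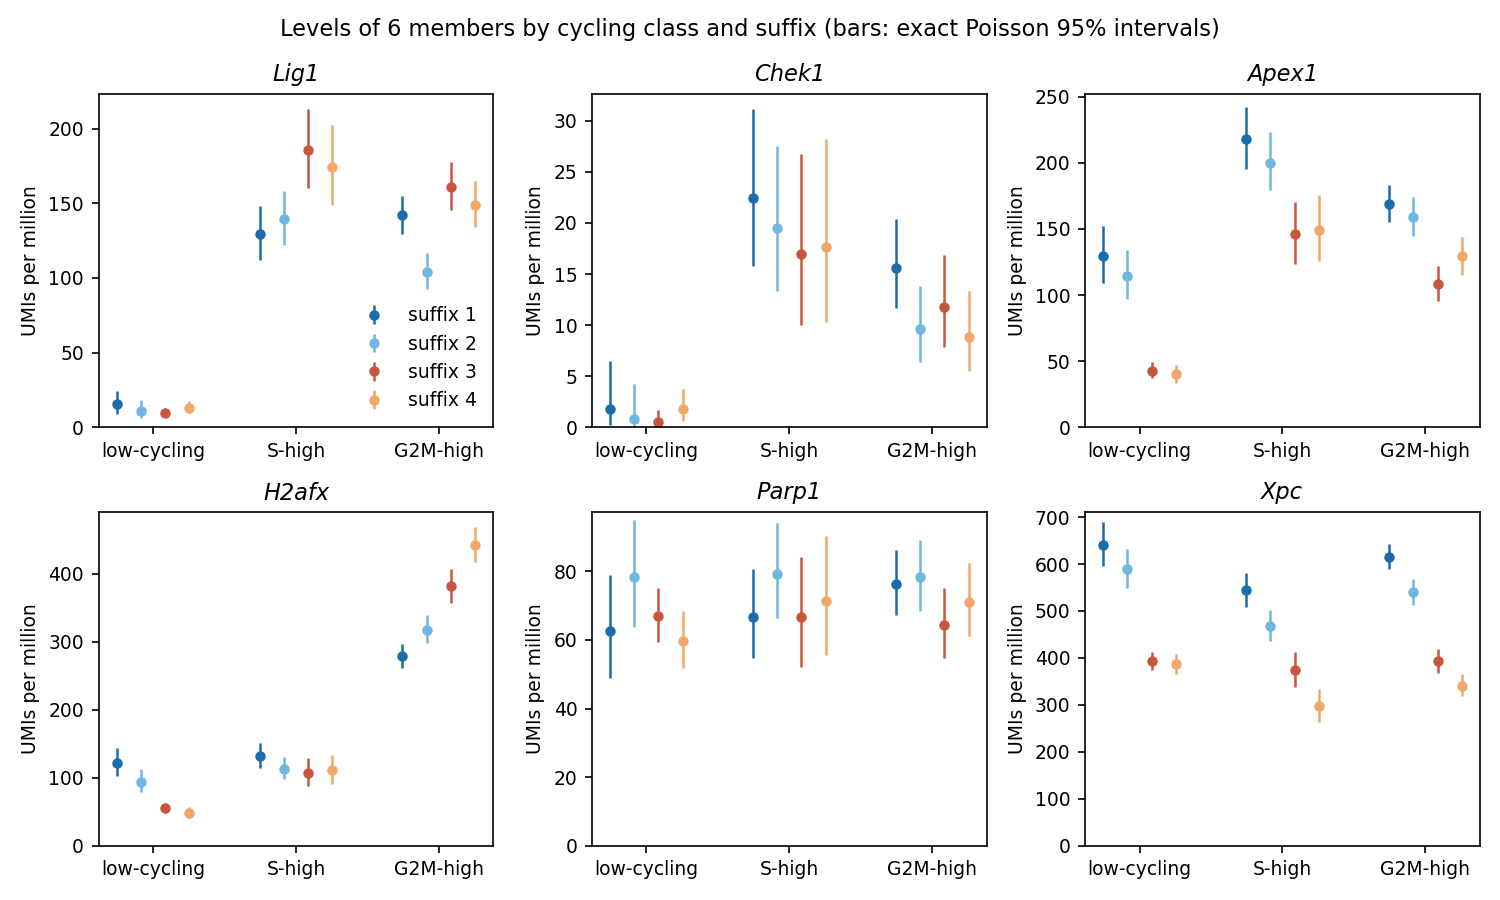
CPM of 6 members in low-cycling, S-high and G2M-high cells of each suffix, with exact Poisson 95% intervals. Lig1 and Chek1 are low in low-cycling cells of all suffixes, H2afx is highest in G2M-high cells, Parp1 is level, and Xpc is higher in suffixes 1 and 2 in every class.

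Other genes of the same pathways, taken from a list of 106 of which 81 reached 5 CPM, were higher in 31 of 81 cases in S-high and in 31 of 81 in G2M-high cells, and lower in 0. Of all genes 7% and 7.45% were higher in these classes, and 4.22% and 4.18% lower. In recombination 10 of 20 were higher in S-high cells, among them Exo1, a resection nuclease (27.5 CPM in S-high against 0.787 CPM in low-cycling cells, suffixes pooled), and Rad54l, a motor of strand exchange (36.8 against 2.36). In the checkpoint list 11 of 21 were higher, with Tipin (322 against 44.7) and Timeless (56.4 against 8.17), which form the fork protection complex, and Clspn (37.0 against 1.48), the adaptor that lets ATR activate CHK1. Pcna, the sliding clamp (147 against 22.9), Fen1, the flap nuclease (131 against 19.0), Ung, the uracil glycosylase (188 against 10.4), and Rpa2, a subunit of the single-strand binding protein (172 against 31.4), were likewise higher. Neil3, a glycosylase, had a median log2 ratio of 2.64 in S-high and 4.78 in G2M-high cells. In end joining 0 of 5 were higher: Xrcc4, the scaffold of the end joining ligase, was at 16.7 against 14.8 CPM.

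Because the stages differ in cycling, the same ratios were also taken inside the largest cluster of cells (865 cells), a choice made after seeing the data. Only suffixes 3 and 4 had 30 cells in each class there. In S-high cells 8 of 29 members were higher (5.58% of all genes) and 0 lower (2.72%): Brca1, Brca2, Palb2, Mre11a, Msh6, Lig1, Apex1 and Chek1. In G2M-high cells 4 of 29 were higher (5.59%), namely Lig1, Chek1, H2afx and Trp53bp1, a chromatin reader that favours end joining, and 0 were lower (2.47%). Lig1 was at 130 and 148 CPM in S-high against 14.0 and 21.4 CPM in low-cycling cells of the cluster. H2afx was at 175 and 219 CPM in G2M-high against 79.3 and 54.3 CPM. Of the members higher in S-high cells over all clusters, Fancd2 and Pms2 did not meet the rule inside the cluster. In G2M-high cells 0 of 8 recombination members and 0 of 2 mismatch members met it there, against 5 of 8 and 1 of 2 over all clusters. That comparison leaves out cluster 2 (639 cells), of whose cells 77.1% were G2M-high, against 18.6% in the largest cluster. Over clusters, Brca1, Brca2, Palb2, Fanca and Fancd2 were highest in cluster 2, and Rad50, Mre11a and Nbn in others. The classes in the cluster held 37 to 116 cells per suffix, and Brca1, Brca2, Palb2 and Fancd2 rested on 1 to 7 UMIs in its G2M-high cells.

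Differences between suffixes were then read among low-cycling cells and inside the largest cluster. Among low-cycling cells, Apex1 was still at 130 (109 to 153), 114 (96.7 to 134), 42.8 (36.8 to 49.5) and 40.1 (33.7 to 47.4) CPM, and Xrcc6 at 42.9, 25.3, 11.5 and 9.24. The gap between the suffix pairs remained for both genes. Inside the largest cluster, all cycling states together, Apex1 was at 65.1 (45.8 to 89.7), 115 (92.4 to 141), 87.2 (74.9 to 100.98) and 95.3 (82.6 to 109) CPM, with suffix 1 lowest. Xrcc6 was there at 31.7, 19.9, 19.5 and 20.8 CPM. The gap in Apex1 between the pairs, seen in all cells, was not found in the cells of this cluster. Xpc kept its order, at 674 (608 to 745), 614 (561 to 671), 452 (423 to 482) and 430 (403 to 459) CPM, and the intervals of suffixes 1 and 2 lay above those of suffixes 3 and 4. In the low-cycling cells of this cluster Xpc was at 682 (563 to 818), 553 (461 to 659), 462 (411 to 517) and 474 (425 to 528) CPM. There suffix 1 still lay above suffixes 3 and 4, while the interval of suffix 2 overlapped both.

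Promoter sequences were searched for short motifs known from genes of the cell cycle. RefSeq windows (GRCm38.p6) of 300 bases, 250 before and 50 after an annotated start, were matched to 27 of the 33 genes. Rad50, Nbn, Fancd2, Prkdc, Xpc and H2afx had no window in the table. The windows were searched on both strands for the E2F-type letters TTTCCCGC, TTTCGCGC, TTTGCCGC and TTTGGCGC, for the cell cycle homology letters TTTGAA and TTCGAA, and for CCAAT. No motif contains another, though matches may share end bases. An E2F-type match was found in 6 of 27 members (22.2%): Brca2, Xrcc6, Msh6, Lig1, Chek2 and Mdc1. The share was 2.26% of all 32851 windows and 2.61% of 27025 genes. CCAAT was found in 17 of 27 (63.0%, against 41.1% of genes) and the homology letters in 3 of 27 (11.1%, against 21.7%). Of the members higher in S-high cells that had a window (Fanci included), 3 of 10 held an E2F-type match, and of the others 3 of 17. The 250 bases before the start are shown for Brca2 (chr5:150522371-150522620, plus strand) and Chek1 (chr9:36726659-36726908, minus strand), which were higher in S-high cells, and for Xrcc6 (chr15:82016119-82016368, plus strand) and Chek2 (chr5:110839733-110839982, plus strand), which did not meet the rule. Sequences read 5′ to 3′ on the gene's strand, and capitals mark the E2F-type match or its reverse complement.
Brca2: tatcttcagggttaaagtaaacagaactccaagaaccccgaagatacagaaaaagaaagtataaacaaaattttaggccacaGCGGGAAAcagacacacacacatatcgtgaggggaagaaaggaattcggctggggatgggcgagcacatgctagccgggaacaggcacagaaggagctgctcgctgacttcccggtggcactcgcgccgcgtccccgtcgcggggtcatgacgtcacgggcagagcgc
Chek1: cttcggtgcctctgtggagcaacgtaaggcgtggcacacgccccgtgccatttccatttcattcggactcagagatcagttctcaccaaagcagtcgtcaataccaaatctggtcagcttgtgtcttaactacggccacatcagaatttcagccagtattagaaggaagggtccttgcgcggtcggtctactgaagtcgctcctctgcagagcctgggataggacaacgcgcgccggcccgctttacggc
Xrcc6: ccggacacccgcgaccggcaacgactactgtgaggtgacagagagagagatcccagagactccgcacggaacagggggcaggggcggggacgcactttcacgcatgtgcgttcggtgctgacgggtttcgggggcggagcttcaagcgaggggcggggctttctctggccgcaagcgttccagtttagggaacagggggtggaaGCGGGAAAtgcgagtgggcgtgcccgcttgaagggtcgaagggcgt
Chek2: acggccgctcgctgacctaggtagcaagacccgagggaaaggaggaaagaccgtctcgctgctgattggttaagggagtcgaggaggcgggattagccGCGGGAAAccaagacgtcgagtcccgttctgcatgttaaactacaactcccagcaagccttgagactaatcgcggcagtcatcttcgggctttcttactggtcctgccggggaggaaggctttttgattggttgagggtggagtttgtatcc
The match begins 168 bases before the start in Brca2, 46 in Xrcc6 and 152 in Chek2, and Chek1 has none in this window. In Msh6 and Lig1 the match lies past the start, 16 and 27 bases into the transcript. Lig1 has 3 annotated starts with a window, and only the window of start 2 holds the match. Matches were thus found both in members that met the rule and in members that did not, and a match is a description of letters, not a bound site.

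Myeloid stage was taken from clusters made without the members, other repair genes, cycle genes, histone, ribosomal and mitochondrial genes. Of 11 clusters, 3 could be named from markers. The granulocyte precursor-like cluster (449 cells, of which 195 in suffix 1 and 247 in suffix 2) was led by Nkg7, Ms4a3, Mpo and Elane. The neutrophil-like cluster (268 cells, 142 in suffix 3 and 104 in suffix 4) was led by Ngp, Camp and S100a9. The monocyte-like cluster (266 cells, 144 in suffix 3 and 115 in suffix 4) was led by Ifitm3, Apoe and Ifit3, of which Ifitm3 and Ifit3 are interferon-induced, and had 12 of 14 monocyte markers raised. Each named cluster was set against the other cells of the suffixes that held at least 30 of its cells. Cluster 9 (776 cells) had 10 monocyte markers raised and 1 among its top 10 genes. It was left unnamed and stood among those other cells. Of the monocyte-like cells 85.0% were low-cycling, against 39.6% of the neutrophil-like and 14.7% of the precursor-like cells, so each stage was compared over all cells and over low-cycling cells alone.

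Over all cells, the monocyte-like cluster had less of many repair transcripts. Xpc, Apex1 and H2afx stayed lower there when low-cycling cells alone were compared. Over all cells 11 of 29 members were lower, against 15.8% of all genes, and 0 were higher, against 11.7%. They were Brca2, Mre11a, Xrcc6, Msh6, Pms2, Xrcc1, Lig1, Apex1, Xpc, Chek1 and H2afx. Among low-cycling cells 5 of 29 were lower, against 7.92%, and 0 higher, against 7.79%: Xrcc6, Pms2, Apex1, Xpc and H2afx. The median log2 ratio of the members was -1.07 over all cells and -0.77 in low-cycling cells, where it was -0.38 with the 5 members that had 0 UMIs on 1 side at their bound. All genes had medians of -0.13 and -0.11.

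Xpc was at 124 and 128 CPM in monocyte-like cells of suffixes 3 and 4 and at 411 and 381 CPM in the other cells. In low-cycling cells the values were 113 and 137 CPM against 429 and 419, a pooled ratio of 0.291 (0.238 to 0.353). Over all cells the pooled ratio was 0.316 (0.264 to 0.376), so the gap was of similar size in both comparisons, and Xpc was lower in this stage under all 14 alternatives that gave a value for low-cycling cells. Apex1 was at 18.8 and 10.1 CPM against 45.8 and 44.0 in low-cycling cells (13 UMIs in the stage), and H2afx at 25.0 and 25.3 against 59.0 and 51.5. Xrcc6 and Pms2 rested on 3 UMIs and 1 UMI in the stage, with pooled ratios of 0.302 (0.0609 to 0.915) and 0.123 (0.00306 to 0.708). Lig1 was at 16.9 and 6.53 CPM against 78.4 and 81.8 over all cells, but at 10.4 and 5.06 against 9.22 and 14.0 in low-cycling cells, where its pooled ratio was 0.704 (0.274 to 1.52). Brca2 and Chek1 had 0 UMIs in the stage. Over all cells they were at least 3.70-fold and 2.29-fold lower than in the other cells, with a floor of 3 counts over the stage. In low-cycling cells the other cells held only 9 and 8 UMIs of them, too few to show a difference. Parp1 was at 60.5 and 53.2 CPM against 67.7 and 60.6 in low-cycling cells, a pooled ratio of 0.886 (0.648 to 1.19). With suffixes pooled, Xpc was at 345 CPM (326 to 365) in cluster 9 and at 123 (103 to 145) in the monocyte-like cluster. The low Xpc was thus not shared by all cells with raised monocyte markers.

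Ercc5, the nuclease that cuts on the other side of a bulky lesion, ran against the members that were lower by the rule, though its own mean was under 5 CPM. It was at 13.5 and 15.2 CPM in monocyte-like cells against 4.82 and 3.58, and at 16.7 and 12.7 against 6.06 and 4.89 in low-cycling cells (13 UMIs), with a pooled ratio of 2.69 (1.31 to 5.15). Of the other repair genes 29 of 81 were lower and 1 higher over all cells, beside 15.8% and 11.7% of all genes. In low-cycling cells 2 of 81 were lower and 1 higher, beside 7.92% and 7.79% of all genes. These other repair genes were thus not lower more often than all genes once low-cycling cells alone were compared. Without suffix 3, 7 members were lower over all cells and 3 in low-cycling cells. At a mitochondrial limit of 5%, with no such limit, or at a clustering resolution of 0.5, no cluster met the rule for a monocyte-like name.

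Neutrophil-like cells had little Parp1. It was at 19.2 and 11.6 CPM in suffixes 3 and 4, against 71.7 and 70.4 CPM in the other cells, a pooled ratio of 0.228 (0.147 to 0.339). In low-cycling cells it was at 12.1 and 4.73 CPM (5 UMIs) against 71.5 and 63.3, a ratio of 0.136 (0.0440 to 0.320). In G2M-high cells of suffix 3, compared after seeing the data, it was at 11.9 CPM (3 UMIs in 32 cells) against 70.4, a ratio of 0.169 (0.0345 to 0.503). Parp1 was thus lower in this stage in low-cycling cells and in the G2M-high cells of suffix 3. In S-high neutrophil-like cells, suffixes pooled, it was at 36.7 CPM (15.9 to 72.4, 8 UMIs in 30 cells). S-high cells of no named stage had 76.1 CPM (68.1 to 84.9), an overlapping interval. Parp1 met the rule in this stage under each of 15 alternatives over all cells and 17 in low-cycling cells.

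Over all cells 5 of 29 members were lower in neutrophil-like cells, against 21.1% of all genes, and 0 were higher, against 4.74%. They were Prkdc, Msh6, Parp1, Apex1 and Ercc1, a share near the background. Among low-cycling cells 4 of 29 were lower, against 16.9%, and 0 higher, against 3.48%: Parp1, Apex1, Ercc1 and Atr. Most genes had lower values in this stage, with all-gene median log2 ratios of -0.39 and -0.51, beside which the members had -0.34 and -0.41 (0 in low-cycling cells with the 7 members at 0 UMIs on 1 side at their bound). The log2 ratios of Parp1 were -2.17 over all cells and -2.98 in low-cycling cells, and those of Apex1 -1.27 and -1.54, all below the all-gene medians. TMM scaling moved the all-gene median over all cells to -0.12 and the share of higher among all called genes from 18.4% to 35.2%, and Msh6 no longer met the rule. Ercc1 and Atr rested on 3 UMIs and 1 UMI of low-cycling neutrophil-like cells. Without suffix 3, 2 members were lower over all cells, and without suffix 3 or suffix 4, 2 were lower in low-cycling cells.

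Xpc and H2afx did not share that difference over all cells. Xpc was at 429 and 427 CPM in neutrophil-like cells against 391 and 362 in the other cells, and H2afx at 122 and 225 against 148 and 170. Lig1 was at 78.0 and 89.3 CPM against 74.4 and 76.9, a pooled ratio of 1.09 (0.902 to 1.31). In low-cycling cells H2afx was lower in both suffixes, at 42.4 and 28.4 CPM against 56.3 and 49.8. It missed the rule there, with a pooled ratio of 0.692 (0.418 to 1.08). Of the other repair genes 10 of 81 were lower and 5 higher over all cells, and 7 of 81 lower and 1 higher in low-cycling cells, beside 21.1% and 16.9% of all genes lower. In neutrophil-like cells that were G2M-high, H2afx reached 444 CPM (388 to 506), against 35.0 CPM (21.4 to 54.1) in the low-cycling cells of the same stage. The cycling contrast of H2afx was therefore present within this stage too.

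Granulocyte precursor-like cells, compared in suffixes 1 and 2, had 0 of 29 members higher over all cells, against 1.88% of all genes, and 1 lower, against 6.83%. That member was Trp53bp1, at 5.75 and 4.55 CPM against 11.2 and 11.7. Among low-cycling cells 1 member was higher, against 2.67%, and 1 lower, against 6.8%. These were Lig1, at 36.6 and 18.1 CPM (11 UMIs) against 10.8 and 9.24, and Parp1, at 26.1 and 27.1 CPM (11 UMIs) against 70.1 and 88.7. Parp1 was also below the other cells over all cells, at 51.8 and 56.2 CPM against 76.2 and 77.9, within 1.5-fold. Member medians were 0.00 over all cells and -0.08 in low-cycling cells (-0.01 with the 1 member at 0 UMIs on 1 side at its bound), beside -0.09 and -0.19 for all genes. Without suffix 2 no member was lower over all cells and without suffix 1 there were 2, and with called doublets removed the Lig1 log2 ratio in low-cycling cells was -0.27.

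**Figure D4:**
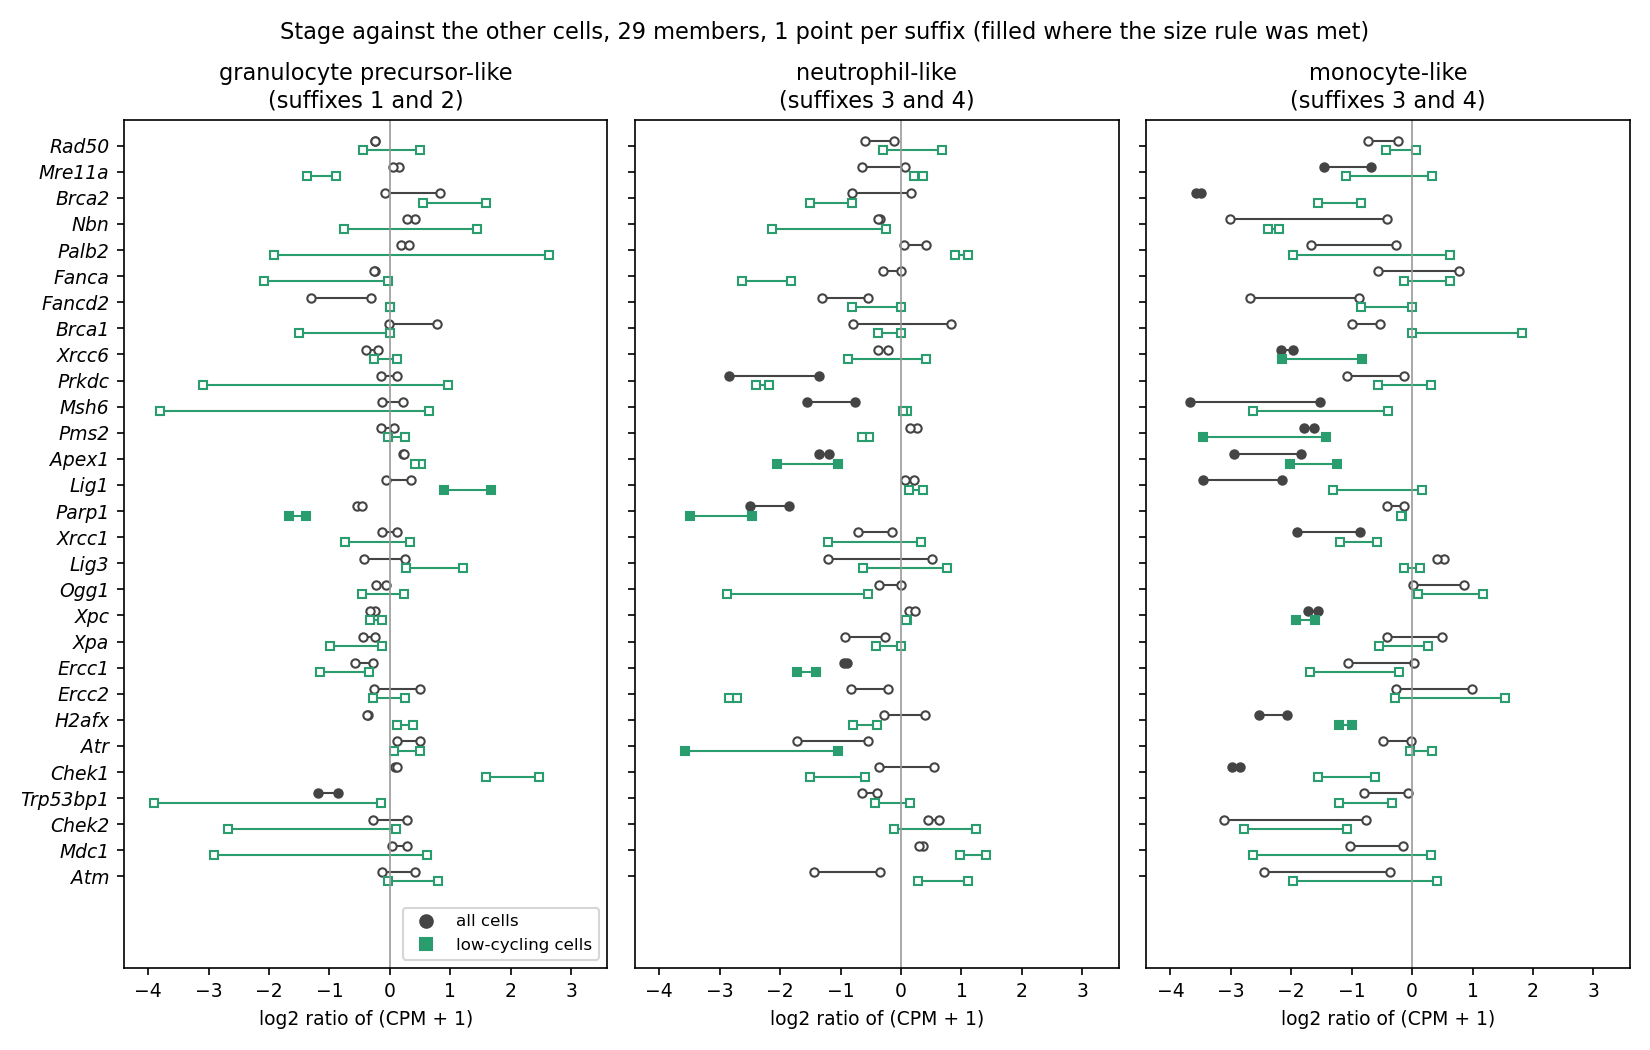
Log2 ratio of (CPM + 1) of 29 members in each named stage against the rest of its suffix, for all cells (circles) and low-cycling cells (squares), 1 point per suffix joined by a line and filled where the size rule was met. Xpc and Apex1 lie left of 0 in monocyte-like cells in both comparisons, and Parp1 and Apex1 do so in neutrophil-like cells.

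Across all 11 clusters, named or not, the members fell into different orders. H2afx ranged from 44.4 CPM (37.6 to 52.1) in cluster 9 to 439 CPM (422 to 456) in cluster 2, of whose cells 77.1% were G2M-high. Lig1 ranged from 11.98 CPM (6.38 to 20.5) in the monocyte-like cluster to 172 (162 to 183) in cluster 2. Levels did not follow the share of low-cycling cells throughout. H2afx was at 171 CPM (157 to 187) in cluster 5, of whose cells 29.98% were low-cycling. It was at 162 (149 to 176) in cluster 4, where 2.22% were, so unlike shares went with overlapping levels. Apex1 ranged from 20.3 CPM (12.7 to 30.7) in the monocyte-like cluster to 203 (188 to 218) in cluster 4, of whose 408 cells 170 were in suffix 1 and 212 in suffix 2. Its neighbours at the top, cluster 6 at 180 CPM (167 to 195) and cluster 5 at 174 (160 to 189), overlapped each other. Parp1 was lowest in the neutrophil-like cluster, 16.7 CPM (11.1 to 24.2), and highest in cluster 7, 102 (87.5 to 118). In the other clusters Parp1 lay between 50.02 and 79.1 CPM. Xpc ranged from 123 CPM (103 to 145) in the monocyte-like cluster to 721 (691 to 752) in cluster 5, which was led by Cpa3, Npy and Mcpt8. Xpa stayed between 28.2 CPM (23.0 to 34.3) and 54.8 (47.2 to 63.2), its highest level being in cluster 9. Clusters pool suffixes that hold unequal shares of them, so these levels also carry the suffix differences.

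**Figure D5:**
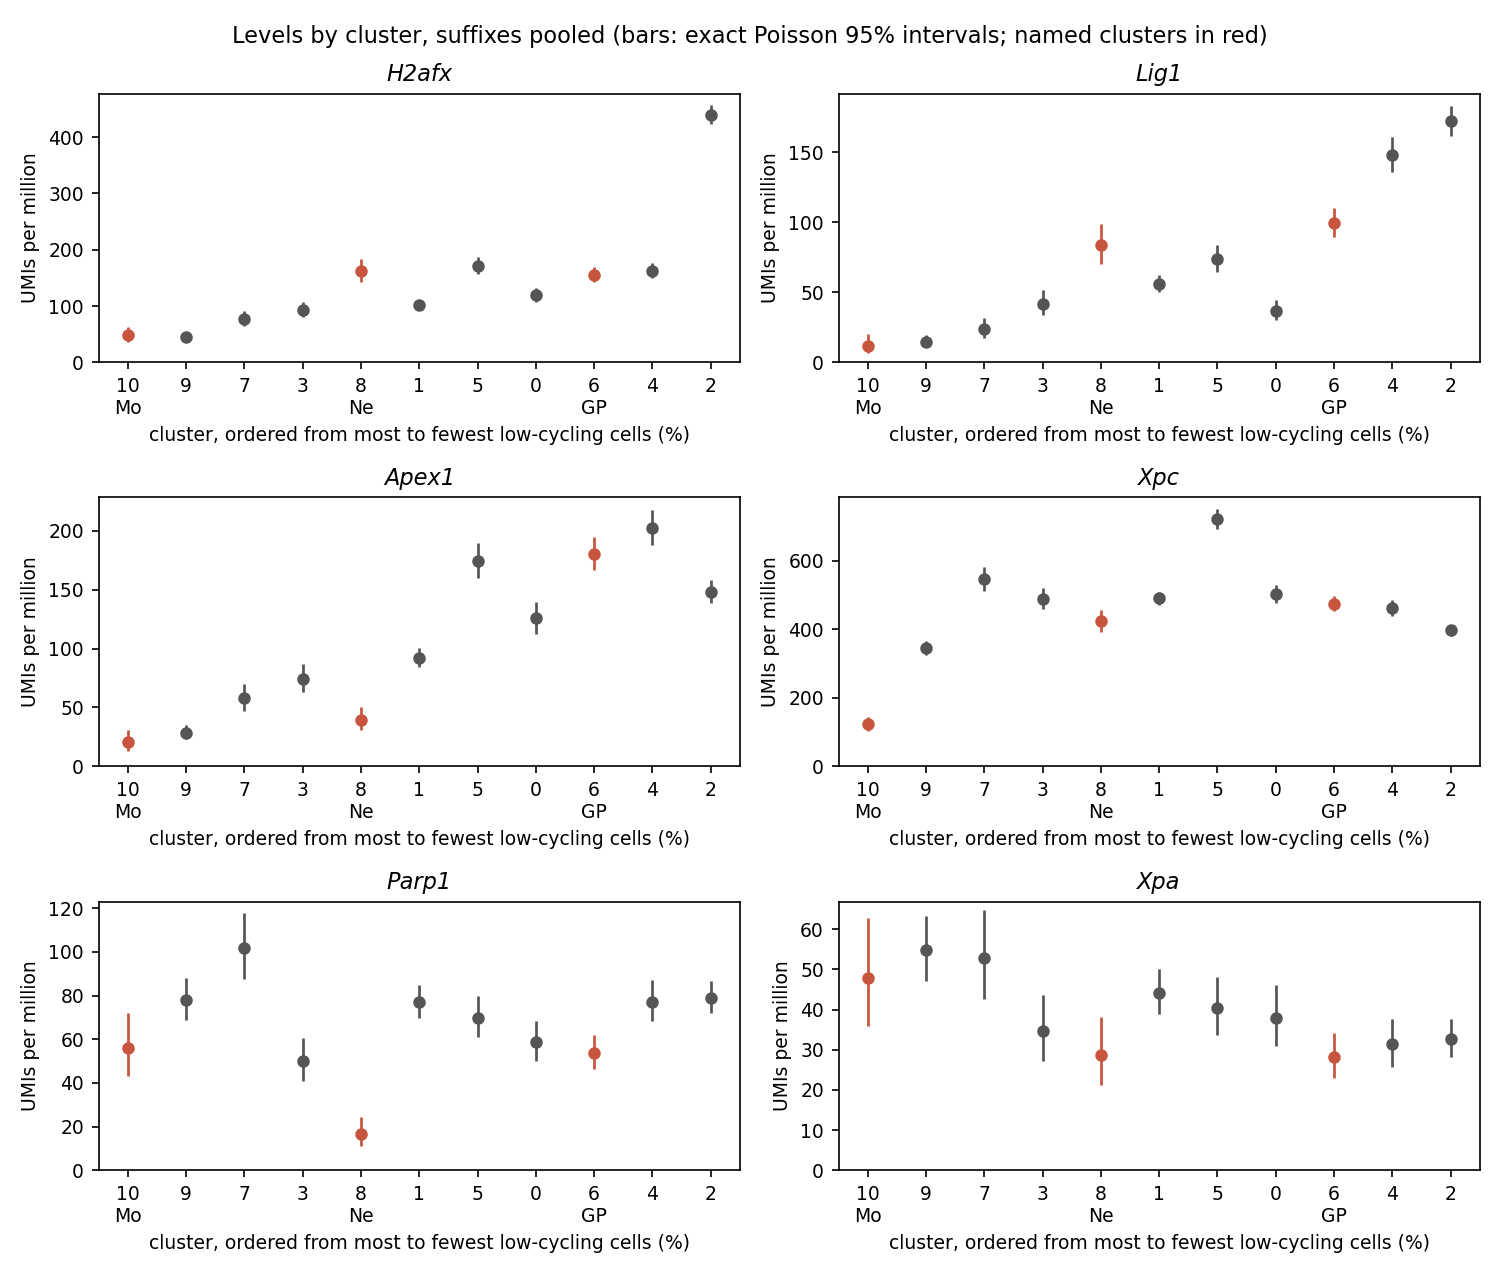
CPM of 6 members in each of 11 clusters, suffixes pooled, with exact Poisson 95% intervals, ordered by the share of low-cycling cells (Mo, monocyte-like; Ne, neutrophil-like; GP, granulocyte precursor-like; named clusters in red). H2afx and Lig1 are highest in cluster 2, Parp1 is lowest in the neutrophil-like cluster and Xpc is lowest in the monocyte-like cluster.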

How the data were processed

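Single cells were captured with 10x Chromium 3' V2 reagents, per the labels' protocols. Reads were processed with Cell Ranger 1.3 against mm10, per the submitters' processing notes, which name Seurat 2.3.4, while Seurat 1.4 stands in the series design text. No source used here gives the annotation that was counted. The deposited table holds the authors' raw UMI counts per gene and barcode, with no normalization, and 0 of its columns belong to other samples.

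Barcodes under 500 UMIs or over 10% mitochondrial UMIs were removed. Counts were summed over cells of a class within a suffix, scaled to CPM and compared as log2 of (CPM + 1) ratios, with the median over suffixes holding at least 30 cells on both sides. Pooled ratios have exact conditional binomial 95% intervals. Clusters used scanpy 1.11.5 (2000 variable genes, 30 components, 15 neighbours, Leiden resolution 1) in Python 3.11.15, and TMM factors edgeR 4.0.16. A cluster was named where at least 3 markers of a type were 2-fold or more above other cells at 20 CPM or more more than of any other type, and that type had most markers among its top 10 genes. Scrublet marked 27 of 5456 cells (0.495%), too few for its calls to be trusted, so doublets were kept. Gene positions are from GENCODE M21 (GRCm38).

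The members and lists were chosen with earlier results of these data known. Values in every suffix are given for members whose mean reached 20 CPM and, in each pathway, for the 2 with the largest median log2 ratio in a cycling class. Named genes of the other repair list are the 2 highest by level and the 2 others with the largest ratio in S-high cells, of which some are not reported here. Alternatives were scaling, filters, thresholds, thinning, clustering, doublet removal and each suffix left out. Genotype and treatment were not compared.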

Additional observations from a re-analysis of the deposited data

Results flagged for a closer look

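The summed level of the 33 genes in the barcodes left out for over 10% mitochondrial UMIs was 1523 CPM (1406 to 1648, 625 UMIs in 208 barcodes), far above the limit that a count of 0 allows there (7.31 CPM) and above the 1249 CPM (1237 to 1261) of the kept cells. It was singled out because these barcodes enter no comparison of the report.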

How the results depend on the processing

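Of 135 recomputed counts of members, 99 stayed within 1.5 times the reported value. The share over all genes under each setting is not given beside the counts below. They show how the calls of members move with the setting, not how members differ from other genes. A minimum of 20 CPM leaves 9 members to count. Under it, 3 members were spread over suffixes (9 as reported), 2 were higher in S-high cells (10), 2 in G2M-high cells (9), 0 met the rule in precursor-like cells (1), 6 in monocyte-like cells (11), 2 in neutrophil-like cells (5) and 2 in low-cycling neutrophil-like cells (4). At 1.2-fold the counts were 16 over suffixes, 16 in G2M-high cells and 5 in precursor-like cells, and at 2-fold they were 5 over suffixes, 0 in precursor-like, 3 in neutrophil-like and 3 in low-cycling monocyte-like cells. Within the largest cluster 4 members were higher in G2M-high cells, an alternative chosen after seeing the data. In precursor-like cells 3 members met the rule with all variable genes in the clustering (2 in low-cycling cells), 2 as a mean over cells, 0 at a mitochondrial limit of 5%, 0 with no such limit (0 in low-cycling cells), 0 at resolution 0.5 and 0 at resolution 2. With called doublets removed the low-cycling counts were 0 in precursor-like and 3 in monocyte-like cells. At resolution 2 they were 7 in all and 1 in low-cycling monocyte-like cells. In low-cycling neutrophil-like cells the count was 2 with percentiles taken within each suffix and 2 at resolution 0.5, where the log2 ratios of Apex1 and Atr turned to 0.11 and 0.087. The Lig1 ratio in low-cycling precursor-like cells turned to -0.27 with called doublets removed. Leaving out each suffix in turn gave 0 to 2 members in precursor-like, 7 to 9 in monocyte-like and 2 to 7 in neutrophil-like cells, and in low-cycling cells 3 to 5 in monocyte-like and 2 in neutrophil-like cells. The cause of these changes was not tested. No paired analysis was possible because each group has 1 sample and no suffix is tied to a sample. Depth limits the low-cycling stage comparisons, where several members rest on 0 to 13 UMIs.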

Other observations

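The subunits of the Ku ring were counted at different levels. Xrcc5, the larger subunit, had 14 UMIs in all kept cells, at 0.523, 0.480, 0.503 and 0.117 CPM in suffixes 1 to 4, whereas Xrcc6 was at 41.2, 31.0, 17.9 and 19.2 CPM. These are UMIs at transcript ends and are not scaled by length. Lig4, the ligase of the same pathway, was at 1.70, 1.44, 0.906 and 2.69 CPM, with suffix 4 highest. This pair of genes was singled out after their values were seen.

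The unnamed clusters also differed in repair transcripts. Cluster 9, led by Lpl, Wfdc17 and Tgm3 and held mostly by suffixes 3 and 4 (396 and 343 of 776 cells), had 28.6 CPM (23.2 to 34.8) of Apex1 and 8.83 (5.96 to 12.6) of Xrcc6, near the levels of the monocyte-like cluster (20.3 and 3.69), but 345 CPM (326 to 365) of Xpc and 78.0 (68.9 to 88.0) of Parp1. Cluster 7, led by Cd74 and Gsn, combined the highest Parp1 with 57.9 CPM (47.3 to 70.3) of Apex1 and 1.13 (0.136 to 4.06) of Chek1.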
